A study of Mus musculus with 4 samples.

Results

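The Schlafen genes Slfn1, Slfn2, Slfn4, Slfn5, Slfn8 and Slfn9 were followed across the cell types of B16-F10 mouse melanomas. They were chosen by symbol, and all 6 were found among the 27998 genes of the matrix, in which 10 symbols begin with Slfn. B16-F10 is a transplantable melanoma line of C57BL/6 origin. The Adar1-null group (libraries S1 and S2) held CD45+ cells from tumours grown from Adar1-null B16-F10 cells. The control group (libraries S3 and S4) held CD45+ cells from control B16-F10 tumours, called wild type in the design. Both groups shared the host strain C57BL/6, implantation of the same number of tumour cells in matrigel and harvest at day 14. The labels name the deletion for the tumour cells and not for the host, and whether the null line was 1 clone is not given in the sources used here. The design names 2 tumours per genotype, so p-values between genotypes cover the spread between these tumours. Each library is named by its genotype without a replicate number.

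Schlafen proteins are a family of vertebrate proteins, many of them induced by type I interferon, that are best known from lymphocytes and myeloid cells. Mouse members are grouped by size: the short ones are Slfn1 and Slfn2, Slfn4 is an intermediate one, and the long ones, Slfn5, Slfn8 and Slfn9, also carry a helicase-like part. Mouse Slfn1 was first described as a gene that stops thymocyte growth, and mouse Slfn2 is needed to keep T cells and monocytes quiescent. Adar1 edits adenosine to inosine in double-stranded RNA, and cells without it can sense their own RNA and make interferon.

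All 6 genes lie on mouse chromosome 11 within 238868 bases (chr11:82951349-83190216, GRCm38, GENCODE annotation). From the lower coordinate they run Slfn5 (plus strand), Slfn9 and Slfn8 (both minus strand), Slfn2, Slfn1 and Slfn4 (all plus strand). The annotation gives coding sequences of 1011 bases for Slfn1, 1134 for Slfn2, 1806 for Slfn4, 2652 for Slfn5 and 2730 for both Slfn8 and Slfn9. The long neighbours Slfn8 and Slfn9 are 92.7% identical over their 2730 aligned coding bases, while Slfn5 and Slfn8 are 66.1% identical. Among the shorter genes the aligned identity was 72.6% for Slfn1 and Slfn2, 76.3% for Slfn1 and Slfn4 and 78.4% for Slfn2 and Slfn4. These libraries read the 3' end of each mRNA, and the last 500 transcript bases of each of the 6 genes shared no stretch of 90 bases with another gene.

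**Figure D1:**
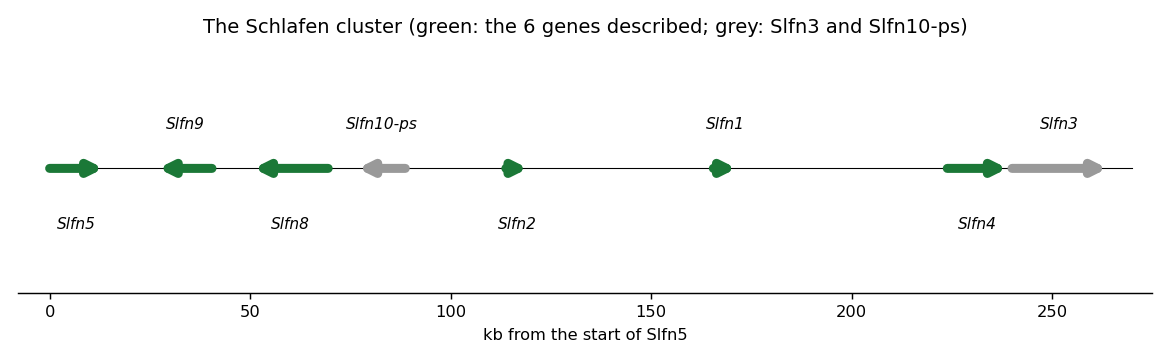
Map of the Schlafen cluster on mouse chromosome 11, drawn to scale in kb from the start of Slfn5, with arrows showing the strand. Green arrows are the 6 genes described here and grey arrows are Slfn3 and the pseudogene Slfn10-ps; the near-identical pair Slfn8 and Slfn9 lie side by side on the minus strand.

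The promoters below are shown because Slfn8 and Slfn9 have similar promoters and unlike levels in the tumours, and because the family is known for its response to interferon. Each line is 250 bases upstream of a start (RefSeq, GRCm38.p6), written 5′ to 3′ on the gene's own strand. Capitals mark a match on either strand to GAAA, any 2 bases and GAAA, the core of the interferon-stimulated response element. The Slfn5 start in RefSeq lies inside the span given for the gene by GENCODE.
Slfn8, chr11:83020811-83021060 (−): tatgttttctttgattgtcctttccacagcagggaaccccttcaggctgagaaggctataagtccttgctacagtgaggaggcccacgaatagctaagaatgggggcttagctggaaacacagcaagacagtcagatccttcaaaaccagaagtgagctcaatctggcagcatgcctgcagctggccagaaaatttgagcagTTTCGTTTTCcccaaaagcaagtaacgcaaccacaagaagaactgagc
Slfn9, chr11:82991831-82992080 (−): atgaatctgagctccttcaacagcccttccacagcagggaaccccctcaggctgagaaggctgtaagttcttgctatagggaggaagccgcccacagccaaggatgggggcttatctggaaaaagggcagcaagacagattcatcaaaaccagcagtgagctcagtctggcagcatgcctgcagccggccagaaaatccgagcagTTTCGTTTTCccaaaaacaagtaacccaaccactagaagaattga
Slfn5, chr11:82951852-82952101 (+): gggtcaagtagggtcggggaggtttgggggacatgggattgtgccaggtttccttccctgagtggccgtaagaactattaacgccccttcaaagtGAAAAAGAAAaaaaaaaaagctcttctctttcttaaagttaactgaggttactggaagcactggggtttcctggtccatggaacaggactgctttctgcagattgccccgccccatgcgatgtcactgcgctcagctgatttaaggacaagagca
Slfn4, chr11:83174936-83175185 (+): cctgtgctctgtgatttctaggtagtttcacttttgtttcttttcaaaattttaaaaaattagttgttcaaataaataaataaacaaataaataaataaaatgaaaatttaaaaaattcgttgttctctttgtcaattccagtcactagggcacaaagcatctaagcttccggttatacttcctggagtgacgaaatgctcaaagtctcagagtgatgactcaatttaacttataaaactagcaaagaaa
The Slfn8 and Slfn9 windows were 86.3% identical over 227 aligned bases. Both held these letters on the opposite strand (GAAAACGAAA), 48 to 39 bases upstream of the start in Slfn8 and 45 to 36 bases upstream in Slfn9. Slfn5 held it on the gene strand 155 to 146 bases upstream (GAAAAAGAAA). The windows of Slfn1, Slfn2 and Slfn4 held no such letters. The motif was found in 3.46% of 27025 genes and in 12 of the 30 genes with a window from the interferon-stimulated list used here. The letters TTCNNNGAA, the core of a gamma-activated site, were found in none of the 6 genes, against 8.13% of all genes and 5 of those 30.

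The 4 libraries held 8838 barcodes, of which 8677 cells were kept (1972 and 1957 Adar1-null cells, 1962 and 2786 control cells), at a median of 7694 to 8881 UMIs per cell. A UMI (unique molecular identifier) marks 1 captured mRNA molecule, and 38 barcode sequences occurred in more than 1 library. Cells were gated by how many marker genes of a type they expressed, no Schlafen gene being a marker. This gave 1394 lymphoid, 4855 myeloid and 1144 melanoma cells, the last making up 13.2% of cells in spite of the CD45 selection. The summed level of the T cell markers (CPM, UMIs per 1000000 UMIs of a sum) was 3636 to 4058 in lymphoid sums, 11.7 to 21.7 in myeloid sums and 8.31 to 15.3 in melanoma sums. That of the melanoma markers was 6840 to 7404 CPM in melanoma sums, 98.6 to 118 in myeloid sums and 36.7 to 63.8 in lymphoid sums. Adar itself stood at 9.47 and 13.0 CPM in Adar1-null melanoma cells, against 11.7 and 13.1 CPM in control melanoma cells. A 3' tag outside the deleted part does not check the deletion.

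Slfn1, Slfn2, Slfn4, Slfn5 and Slfn8 were lower in lymphoid than in myeloid cells and higher in both than in melanoma cells, the Slfn4 difference between lymphoid and melanoma cells resting on 1 library, whereas Slfn9 did not differ detectably between the lineages. Each sum is taken over the cells of a gate in 1 library. Of all UMIs of a gene, the myeloid gate, with 56.0% of cells, held 74.0% for Slfn1, 73.3% for Slfn2, 78.8% for Slfn4, 76.1% for Slfn5 and 72.2% for Slfn8, but 30.3% for Slfn9. The melanoma gate held 41.7% of the Slfn9 UMIs (88 of 211). Melanoma cells were the most deeply read, with a median of 32606.5 UMIs per cell, against 8415 in lymphoid and 7277 in myeloid cells. Of the 106563778 UMIs of all genes in kept cells, the myeloid gate held 41957809 and the melanoma gate 37512316. Shares of cells are thus not shares of the UMIs read. UMIs over all kept cells were 3119 for Slfn1, 22088 for Slfn2, 937 for Slfn4, 1236 for Slfn5 and 1505 for Slfn8.

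Among the short members, Slfn1 stood at 17.1 and 29.1 CPM in Adar1-null (S1, S2) and 19.6 and 16.5 CPM in control (S3, S4) lymphoid cells. In myeloid cells Slfn1 stood at 53.1 and 96.4 CPM in Adar1-null against 58.1 and 35.5 CPM in control libraries, and in melanoma cells at 0.806 and 0.901 CPM in Adar1-null against 1.15 and 0.398 CPM in control libraries. All 4 lymphoid values lay below the lowest myeloid value and above the highest melanoma value. Slfn2, the deepest covered member, stood at 144 and 175 CPM in Adar1-null against 150 and 102 CPM in control lymphoid cells. Its myeloid level was 344 and 574 CPM in Adar1-null against 407 and 309 CPM in control libraries, and its melanoma level 5.84 and 5.63 CPM in Adar1-null against 8.31 and 6.27 CPM in control libraries. Here too the ranges of the 3 lineages did not overlap.

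Slfn4, an intermediate member studied in mouse macrophage activation, had 3 and 14 UMIs (0.967 and 3.31 CPM) in Adar1-null and 1 UMI in each control library (0.317 and 0.338 CPM) in lymphoid cells. Its myeloid level was 20.1 and 37.1 CPM in Adar1-null against 13.9 and 10.3 CPM in control libraries, and its melanoma level 0.907 and 0.789 CPM in Adar1-null against 0.693 and 0.398 CPM in control libraries. Every myeloid value exceeded every lymphoid and melanoma value, and the lymphoid and melanoma ranges overlapped. Among the long members, Slfn5 averaged 2.58 ± 1.51 CPM in lymphoid, 24.2 ± 9.96 in myeloid and 0.135 ± 0.0605 in melanoma cells (SD, n = 4 libraries), the last from 5 UMIs. Slfn8 averaged 10.1 ± 5.59 CPM in lymphoid, 28.0 ± 10.0 in myeloid and 0.773 ± 0.506 in melanoma cells (SD, n = 4 libraries). The lymphoid and myeloid ranges were separate for both genes.

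Slfn9, nearly identical in coding sequence to Slfn8, gave other values. In lymphoid cells it stood at 1.93 and 1.18 CPM in Adar1-null against 0.633 and 3.04 CPM in control libraries, and in myeloid cells at 1.66 and 3.08 CPM in Adar1-null against 1.11 and 1.05 CPM in control libraries. In melanoma cells it stood at 1.91 and 2.93 CPM in Adar1-null against 2.77 and 1.89 CPM in control libraries. The ranges of the 3 lineages overlapped. For every 1000 Slfn2 UMIs, melanoma cells held 362 Slfn9 UMIs, lymphoid cells 11.2 and myeloid cells 3.95. For Slfn1 the same ratio was 123 in melanoma, 146 in lymphoid and 142 in myeloid cells. Most of the spread in the Slfn9 ratio lies in its denominator. Slfn2 averaged 6.51 CPM in melanoma, 143 in lymphoid and 409 in myeloid cells, and Slfn9 2.38, 1.70 and 1.73 CPM. A Slfn9 UMI was seen in 7.17% of melanoma, 1.58% of lymphoid and 1.26% of myeloid cells, and in 1.14%, 0.502% and 0.371% of melanoma, lymphoid and myeloid cells after each was thinned to 3900 UMIs, shares too near a single UMI per cell to read an order from.

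**Figure D2:**
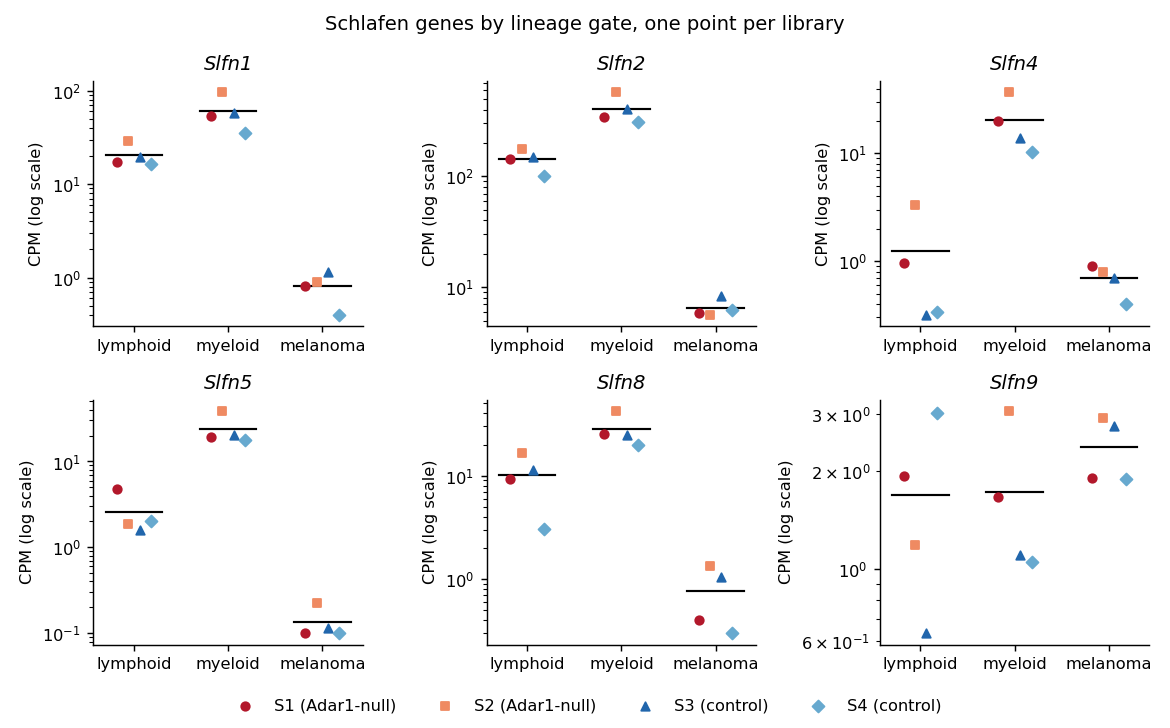
Level of each Schlafen gene (CPM, log axis, own scale per panel) in lymphoid, myeloid and melanoma cells, 1 point per library, with the bar at the mean of 4 libraries. For Slfn1, Slfn2, Slfn4, Slfn5 and Slfn8 all 4 myeloid points lie above the lymphoid and melanoma points, while the Slfn9 points lie between 0.633 and 3.08 CPM in every lineage.

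In edgeR's quasi-likelihood test with library as a block, 5 of the 6 genes were lower in lymphoid than in myeloid cells, beside 35.1% of all 12274 genes tested. The log2 difference was −1.68 ± 0.12 for Slfn1, −1.65 ± 0.12 for Slfn2, −4.11 ± 0.27 for Slfn4, −3.41 ± 0.26 for Slfn5 and −1.65 ± 0.19 for Slfn8 (SE; Benjamini-Hochberg adjusted p from 1.84e-09 for Slfn4 to 1.01e-06 for Slfn8), each lower in 4 of 4 libraries. All 5 had lymphoid and myeloid ranges that did not overlap, beside 26.7% of all genes. The median over the 6 genes was −1.67, beside −0.04 over all genes. Slfn9 differed by −0.14 ± 0.47 (adjusted p = 0.814), with a 95% interval of −1.14 to 0.87.

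The same 5 genes were higher in lymphoid than in melanoma cells, beside 37.8% of all genes, and higher in myeloid than in melanoma cells, beside 40.4%. Ranges did not overlap for 4 members in the first comparison (27.2% of all genes) and for 5 in the second (27.6%). Myeloid over melanoma, the log2 difference was 6.66 ± 0.17 for Slfn1, 6.43 ± 0.15 for Slfn2, 5.28 ± 0.23 for Slfn4, 7.77 ± 0.33 for Slfn5 and 5.69 ± 0.23 for Slfn8. Lymphoid over melanoma, it was 4.98 ± 0.21 for Slfn1, 4.77 ± 0.15 for Slfn2, 4.36 ± 0.59 for Slfn5 and 4.04 ± 0.30 for Slfn8. That of Slfn4 was 1.17 ± 0.45 (edgeR adjusted p = 0.0268) and rested on library S2, without which it was 0.04 (adjusted p = 0.963); DESeq2 gave an adjusted p of 0.0611. Slfn9 differed by −0.07 ± 0.35 between myeloid and melanoma cells (edgeR adjusted p = 0.868, 95% interval −0.82 to 0.69) and by −0.20 ± 0.46 between lymphoid and melanoma cells (adjusted p = 0.696, 95% interval −1.18 to 0.77).

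Within the myeloid gate, monocytes had the highest mean of Slfn1, Slfn2, Slfn4, Slfn5 and Slfn8 among the 10 classes compared. Slfn1 averaged 154 ± 41.2 CPM in monocytes, 77.7 ± 21.6 in cells between monocyte and macrophage markers, 67.1 ± 25.01 in conventional type 2 dendritic cells and 33.7 ± 11.9 in macrophages (SD, n = 4 libraries). The ranges of all neighbours in that order overlapped as far as CD8 T cells (17.8 CPM), which were separate from NK cells (4.24 CPM). For Slfn2, monocytes (728 ± 99.6 CPM) were separate from the next class, the intermediate cells (464.6 ± 99.0), and CD8 T cells (128 ± 24.0), the lowest of the leukocytes, were separate from melanoma cells (6.51 ± 1.23). For Slfn4, monocytes (45.7 ± 29.1 CPM) overlapped with intermediate cells (27.9 ± 12.9), and both were separate from macrophages (10.0 ± 1.53). NK cells and migratory dendritic cells had no Slfn4 UMI in 90 and 98 cells, which at 3 counts over the 4 libraries allows levels of up to 4.45 and 4.69 CPM.

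Slfn5 followed monocytes (72.9 ± 30.4 CPM) with type 2 dendritic cells (43.9 ± 11.2), intermediate cells (24.4 ± 5.97), type 1 dendritic cells (19.5 ± 9.61) and macrophages (14.3 ± 3.12), each overlapping with its neighbour. In type 2 dendritic cells Slfn5 had 12 and 10 UMIs in Adar1-null and 10 and 9 UMIs in control libraries. Slfn8 averaged 47.2 ± 14.0 CPM in monocytes, 32.5 ± 9.94 in intermediate cells and 21.6 ± 2.89 in macrophages, and 8.66 ± 4.62 in CD8 T cells, again with no separate neighbours in the order. Slfn9 had 11 UMIs in monocytes, 9 of them in library S2 (0 and 8.87 CPM in Adar1-null against 1.80 and 1.30 CPM in control libraries), and its ranges overlapped between neighbouring classes, so no order of classes is read for it.

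**Figure D3:**
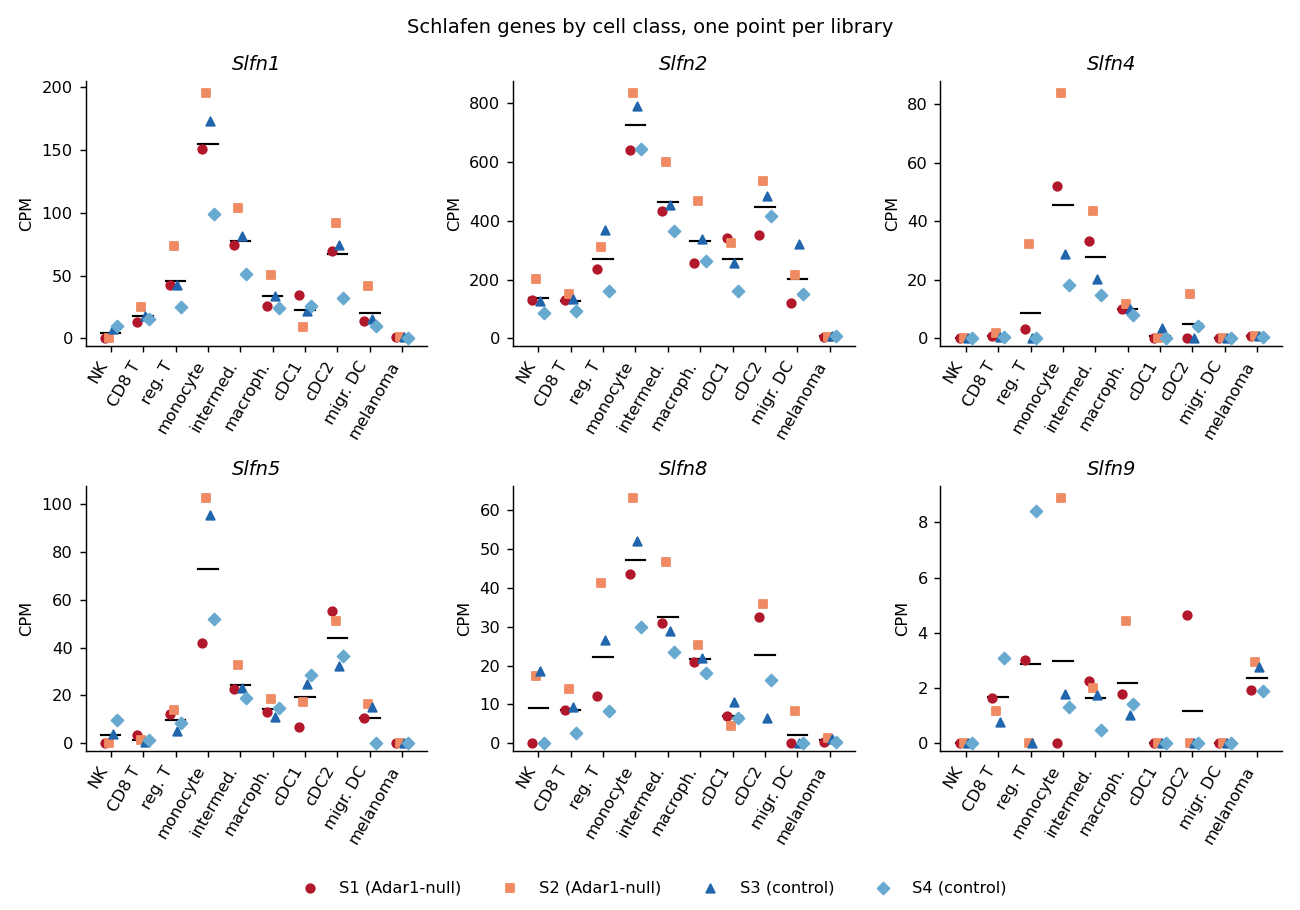
Level of each Schlafen gene (CPM, linear axis, own scale per panel) in 10 gated classes, 1 point per library, with the bar at the mean of 4 libraries. Monocytes have the highest bar for Slfn1, Slfn2, Slfn4, Slfn5 and Slfn8 (728 CPM for Slfn2), the monocyte bar of Slfn9 is set by library S2 at 8.87 CPM, and the melanoma points lie near 0 except for Slfn9.

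In the test of monocytes over macrophages, 5 of the 6 members were higher in monocytes, each in 4 of 4 libraries, beside 13.1% of 11223 genes; Slfn9 failed the filter on low counts. Slfn1 had 151 and 195 CPM in Adar1-null against 173 and 98.8 CPM in control monocytes, and 26.1 and 50.4 CPM in Adar1-null against 33.9 and 24.2 CPM in control macrophages. The ranges did not overlap for this gene or the other 4, beside 10.2% of genes, and the log2 difference of Slfn1 was 2.18 ± 0.12 (edgeR adjusted p = 1.11e-16). Slfn5 differed by 2.27 ± 0.20 (adjusted p = 1.93e-11), Slfn4 by 1.96 ± 0.23 (adjusted p = 9.54e-09), Slfn2 by 1.14 ± 0.10 (adjusted p = 1.36e-11) and Slfn8 by 0.998 ± 0.20 (adjusted p = 0.000159). Monocytes were read less deeply than macrophages, with a median of 5300 against 8083.5 UMIs per cell, and both classes are ranges cut from marker counts, with 1678 cells between them.

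Among T cells, the CD8 T cells (1078) had lower levels than the regulatory T cells (109) of 5 of the 6 members; Slfn9 failed the filter on low counts. The regulatory T class held 44 and 28 cells in Adar1-null and 21 and 16 cells in control libraries, which is under the planned minimum of 20 in library S4, so this test used a minimum of 10 chosen after the cell counts were seen. In CD8 T cells Slfn2 stood at 132 and 152 CPM in Adar1-null against 134 and 94.6 CPM in control libraries. In regulatory T cells it stood at 237 and 312 CPM in Adar1-null against 368 and 160 CPM in control libraries. Those ranges of the 2 classes did not overlap, and the log2 difference was −0.96 ± 0.16 (edgeR adjusted p = 1.12e-05). Slfn1 was at 12.7 and 25.01 CPM in Adar1-null against 17.9 and 15.5 CPM in control CD8 T cells, and at 42.5 and 73.4 CPM in Adar1-null against 42.7 and 25.2 CPM in control regulatory T cells (41 UMIs in all).

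The log2 difference of Slfn1 was −1.27 ± 0.28 (edgeR adjusted p = 0.000674), that of Slfn8 −1.20 ± 0.43 (adjusted p = 0.0459), that of Slfn5 −2.63 ± 0.73 (adjusted p = 0.0073) and that of Slfn4 −3.15 ± 0.86 (adjusted p = 0.00702). Thus 5 of the 6 members passed, beside 9.31% of 7447 genes, and 3 (Slfn1, Slfn2 and Slfn5) did not overlap, beside 12% of genes. The nearest Slfn1 values were 25.01 CPM in CD8 T cells and 25.2 CPM in regulatory T cells of S4, the latter equal to 3 counts. Those of Slfn5 were 3.28 CPM in CD8 T cells and 5.33 CPM in regulatory T cells, the latter under 3 counts in any library. Over all genes edgeR called 529 higher and 693 lower and DESeq2, with its own scaling, 346 higher and 1019 lower, with all 5 members lower in both. Slfn5 had 9 UMIs and Slfn4 8 UMIs in regulatory T cells, and Slfn4 was lower in CD8 T cells in 2 of 4 libraries. Without library S2 the calls of Slfn4 (−1.16, adjusted p = 0.745), Slfn5 (−2.37, adjusted p = 0.0888) and Slfn8 (−0.99, adjusted p = 0.338) were lost, while those of Slfn1 and Slfn2 held without any 1 library. The Slfn8 call was also lost without S3 (adjusted p = 0.158), without S4 (adjusted p = 0.0762) and with no filter on low counts (adjusted p = 0.0951). Monocyte and macrophage markers summed to 129 to 279 CPM in CD8 T cells and 507 to 1657 CPM in regulatory T cells, against 6130 to 11125 CPM in macrophages, and their part in the result was not tested.

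NK cells (90) differed from CD8 T cells in 1 of 5 members tested, Slfn1, with 3 UMIs in NK cells and a log2 difference of −2.12 ± 0.63 (edgeR adjusted p = 0.0203, 95% interval −3.38 to −0.87), beside 5.63% of genes lower. Over all genes edgeR called 351 higher and 419 lower, and DESeq2 559 higher and 199 lower. The Slfn1 difference passed neither in DESeq2 (adjusted p = 0.0866) nor without S1 (0.0535), S2 (0.320) or S3 (0.0580). Slfn2 differed by 0.07 ± 0.19 (adjusted p = 0.889, 95% interval −0.32 to 0.46).

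Set between genotypes, no Schlafen gene passed the test in any gate where it was tested. The Slfn4 values of both Adar1-null libraries lay above those of both control libraries in lymphoid, myeloid and melanoma cells. Higher in this way were 24.3%, 17.9% and 17.3% of the genes that passed the filter on low counts in these gates. The same held in CD8 T cells, monocytes and macrophages, which are parts of the lymphoid and myeloid gates and not separate observations. In lymphoid, melanoma and CD8 T cells Slfn4 failed the filter on low counts and was not tested. In myeloid cells Slfn4 had 157 and 265 UMIs (20.1 and 37.1 CPM) in Adar1-null, against 150 and 166 UMIs (13.9 and 10.3 CPM) in control libraries. The Slfn4 mean was 28.6 ± 12.0 CPM in Adar1-null against 12.1 ± 2.54 CPM in control myeloid cells (SD, n = 2 each). The log2 difference was 1.24 ± 0.33 (edgeR adjusted p = 0.838 over 11032 genes, with the unadjusted p under 0.05). Slfn8 and Slfn9 likewise did not overlap between genotypes, at 25.1 and 42.5 CPM in Adar1-null against 24.8 and 19.7 CPM in control myeloid cells for Slfn8, and at 1.66 and 3.08 against 1.11 and 1.05 CPM for Slfn9. Of the genes tested in myeloid cells, 17.9% were higher without overlap, beside 3 of the 6 members.

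In the myeloid test 0 of 6 members and 0 of 11032 genes (0%) passed in edgeR, with 241 genes higher and 361 lower at an unadjusted p under 0.05 and 19 genes called by DESeq2, none of them a member. The log2 difference was 0.67 ± 0.37 for Slfn1, 0.35 ± 0.28 for Slfn2, 0.60 ± 0.34 for Slfn5, 0.60 ± 0.28 for Slfn8 and 1.12 ± 0.46 for Slfn9. The median over the 6 was 0.64, beside −0.00 over all genes. Library S2 had the highest myeloid level of all 6 genes, and S1 lay below the control library S3 for Slfn1, Slfn2 and Slfn5. Without S2 the Slfn2 difference was −0.07. S2 also held the largest share of monocytes among its myeloid cells: 11.3% and 20% of cells were monocytes in Adar1-null and 8.51% and 6.61% in control libraries, and 37.2% and 15.0% were macrophages in Adar1-null against 41.9% and 58.4% in control libraries.

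Within those classes, Slfn4 stood at 52.0 and 83.8 CPM in Adar1-null against 28.8 and 18.2 CPM in control monocytes (31 and 85 against 16 and 14 UMIs). In intermediate cells it stood at 33.2 and 43.5 CPM in Adar1-null against 20.2 and 14.9 CPM in control libraries, and in macrophages at 10.2 and 11.8 against 9.90 and 8.11 CPM. The monocyte ranges were separate, as they were for 17.1% of all genes tested there toward higher Adar1-null values. The macrophage ranges were also separate, by 10.2 CPM in S1 against 9.90 CPM in S3 at the nearest, as they were for 17.5% of genes. The log2 difference was 1.57 ± 0.35 in monocytes (edgeR adjusted p = 0.999 over 5545 genes, of which 0 were called). Its 95% interval, not adjusted for the number of genes, was 0.80 to 2.34, with the unadjusted p under 0.05. In macrophages the log2 difference was 0.28 ± 0.29 (adjusted p = 0.917, 95% interval −0.39 to 0.94, with 0 of 9820 genes called). Whether the monocyte and macrophage differences were unlike was not tested. DESeq2 called 0 genes in monocytes and 28 in macrophages. At an unadjusted p under 0.05, edgeR had 105 genes higher and 101 lower in monocytes, and 153 higher and 351 lower in macrophages.

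Slfn4 in monocytes passed in edgeR without library S3 (1.89, adjusted p = 0.0232), a fit in which 112 of 6425 genes were called and the lone control library is assumed to vary like the Adar1-null ones. With no filter on low counts it passed in monocytes (adjusted p = 0.00378), where 12 of 12557 genes were called, and in myeloid cells (adjusted p = 0.00365), where 139 of 16887 genes were called. In monocytes the other 4 members tested overlapped between genotypes, with log2 differences of 0.35 ± 0.27 for Slfn1, 0.02 ± 0.21 for Slfn2, 0.03 ± 0.46 for Slfn5 and 0.42 ± 0.33 for Slfn8. Slfn5 in monocytes was at 41.9 and 103 CPM in Adar1-null against 95.3 and 52.0 CPM in control libraries, with 1 high and 1 low library in each genotype. In macrophages these 4 members differed by 0.18 to 0.33, all overlapping.

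**Figure D4:**
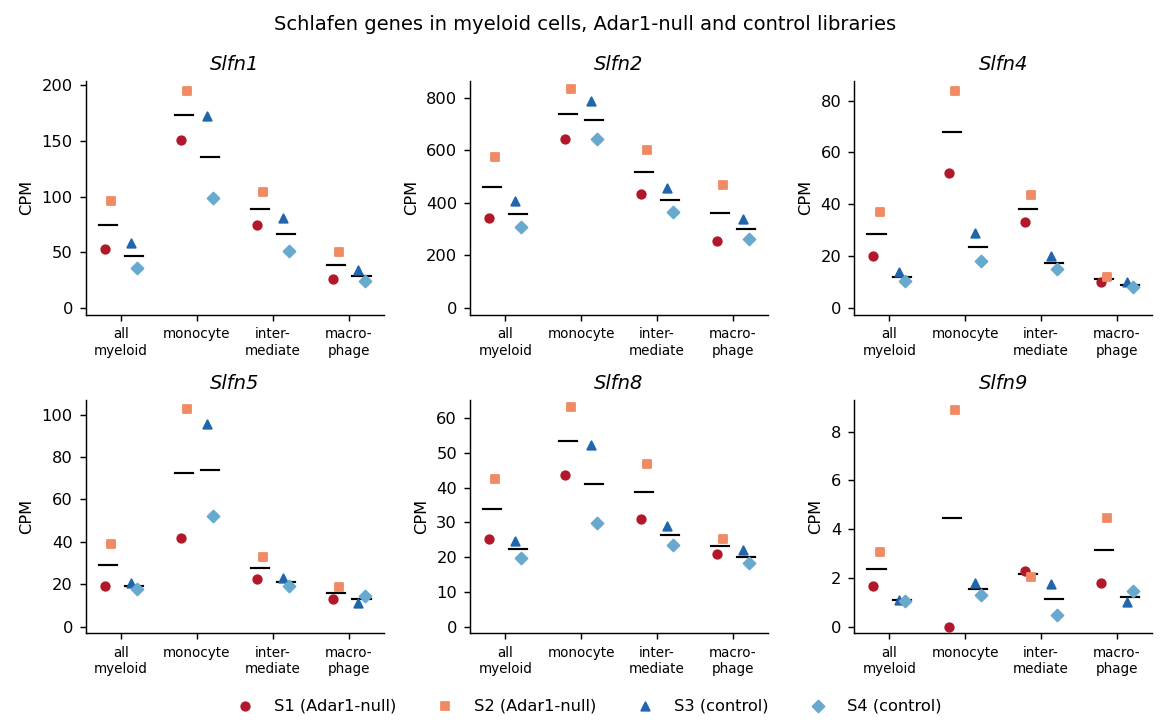
Level of each Schlafen gene (CPM, own scale per panel) in all myeloid cells, monocytes, intermediate cells and macrophages, Adar1-null left of control, 1 point per library with the bar at the mean of 2. For Slfn4 both Adar1-null points lie above both control points in monocytes (52.0 and 83.8 against 28.8 and 18.2 CPM) and come closest in macrophages (10.2 and 11.8 against 9.90 and 8.11 CPM), while Slfn1, Slfn2 and Slfn5 overlap in each.

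In lymphoid cells 3 members passed the filter on low counts and 0 passed the test, beside 6 of 9378 genes (0.064%). The log2 difference was 0.33 ± 0.26 for Slfn1 (edgeR adjusted p = 0.893), 0.30 ± 0.19 for Slfn2 (adjusted p = 0.853) and 0.81 ± 0.59 for Slfn8 (adjusted p = 0.889). Slfn8 ranged widely, at 9.35 and 16.6 CPM in Adar1-null against 11.4 and 3.04 CPM in control lymphoid cells. Without library S3, Slfn2 (0.60, adjusted p = 0.0106) and Slfn8 (2.06, adjusted p = 0.0143) passed, 2 of 252 genes called among 9791. In that fit the lone control library is assumed to vary like the Adar1-null ones. Slfn4 alone did not overlap, and its control values were 1 UMI each. Of the genes tested, which left Slfn4 out, 24.3% were higher without overlap.

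In CD8 T cells 0 of 3 members tested passed, beside 7 of 8917 genes (0.0785%), with differences of 0.18 ± 0.30 for Slfn1, 0.28 ± 0.16 for Slfn2 and 0.90 ± 0.48 for Slfn8. There Slfn4 and Slfn5 were higher without overlap, from 10 and 17 UMIs in all. Of the genes tested, which left both out, 22.1% were higher in this way. In melanoma cells 0 of 2 members tested passed, beside 1 of 11307 genes (0.00884%). Slfn2 stood at 5.84 and 5.63 CPM in Adar1-null against 8.31 and 6.27 CPM in control melanoma cells, without overlap (lower in this way were 15% of genes), and differed by −0.34 ± 0.20 (edgeR adjusted p = 0.999). Slfn9 in melanoma cells differed by 0.05 ± 0.35 (adjusted p = 0.999, 95% interval −0.68 to 0.78). Slfn4 was the member higher without overlap in melanoma cells, from 26 UMIs in all. Of the genes tested, which left Slfn4 out, 17.3% were higher in this way.

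The test of whether the genotype difference was unlike in the lymphoid and myeloid lineages passed for 0 of 6 members in edgeR (unadjusted p at or above 0.124 for each) and for 3 of 11234 genes (0.0267%). Lymphoid less myeloid, the difference of log2 differences was 1.41 ± 0.86 for Slfn4, −1.42 ± 0.95 for Slfn9, −0.36 ± 0.24 for Slfn1, 0.01 ± 0.19 for Slfn2, 0.19 ± 0.78 for Slfn5 and 0.24 ± 0.39 for Slfn8.

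**Figure D5:**
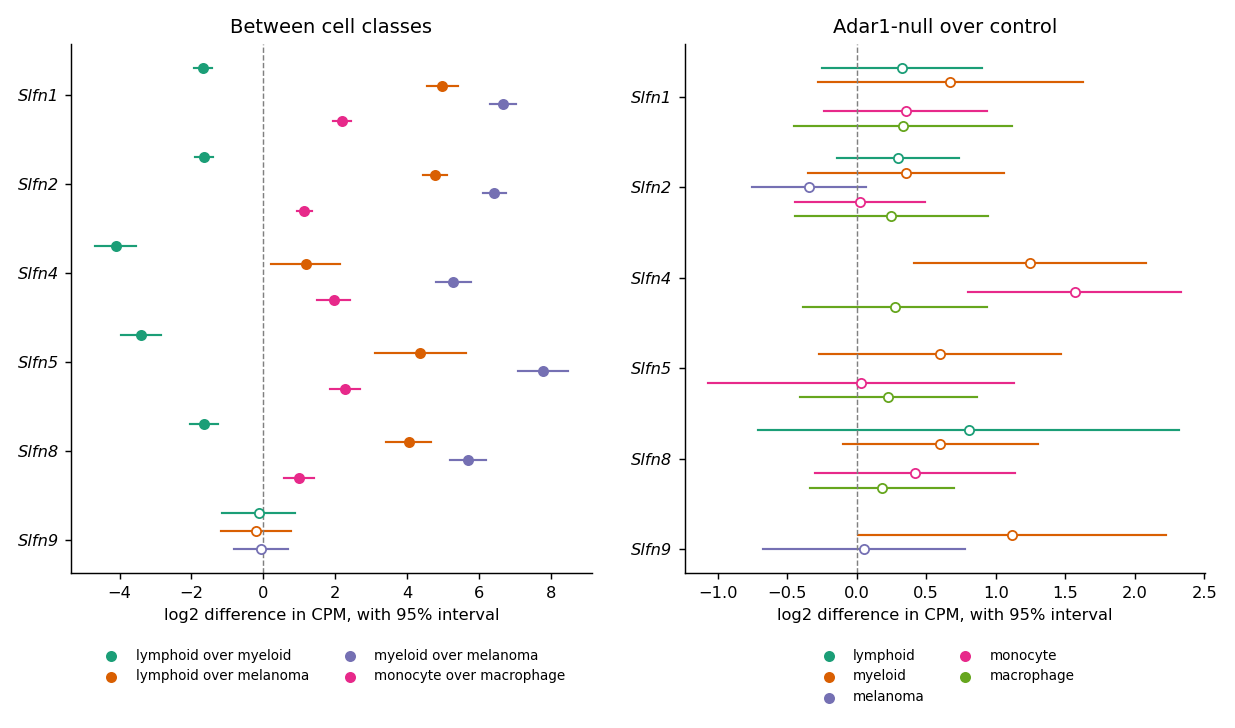
Log2 differences from edgeR with 95% intervals (not adjusted for the number of genes) for each member, on the left lymphoid over myeloid, lymphoid over melanoma, myeloid over melanoma and monocyte over macrophage, and on the right Adar1-null over control. They are taken after edgeR's scaling between sums, so they are not ratios of the CPM values in the text. Filled points have an adjusted p under 0.05. In those 4 class comparisons all points of Slfn1, Slfn2, Slfn4, Slfn5 and Slfn8 are filled and those of Slfn9 open (3 tested), and on the right all points are open, the highest being Slfn4 in monocytes at 1.57.

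The interferon-stimulated genes, which cells switch on through the type I interferon receptor and its STAT factors, were set beside the Schlafen genes as a list of 40, of which 39 were in the matrix and none was a member. Lymphoid over myeloid, 37 of 39 were lower (median −2.28), beside 35.1% of all genes, and 0 were higher. Monocyte over macrophage, 31 of 39 were higher (median 0.90), beside 13.1% of genes, and 0 were lower. Myeloid over melanoma, 39 of 39 were higher (median 4.01), beside 40.4% of genes, and lymphoid over melanoma, 29 of 39 were higher and 1 lower (median 1.96), beside 37.8% of genes higher. CD8 T over regulatory T, 24 of 36 were lower and 0 higher (median −1.21, beside 0.01 over all genes and 9.31% of genes lower). The summed level of the list was 1376 and 1874 CPM in Adar1-null against 1258 and 748 CPM in control lymphoid cells. In myeloid cells it was 5705 and 10144 CPM in Adar1-null against 6389 and 4141 CPM in control libraries, so that, as for Slfn1, Slfn2 and Slfn5, S2 was highest and S1 lay below S3.

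Between genotypes, 0 of the list passed in edgeR in any gate. The difference was positive for 35 of 35 tested in lymphoid cells (median 0.66, 13 at an unadjusted p under 0.05, 2 called by DESeq2), beside 49.2% of all genes positive. It was positive for 39 of 39 in myeloid cells (median 0.62, 4 at an unadjusted p under 0.05, 0 called by DESeq2), beside 49.5% of all genes. In melanoma cells it was positive for 26 of 36 (median 0.21, 3 at an unadjusted p under 0.05, 0 called by DESeq2), beside 48.4% of all genes. At an unadjusted edgeR p under 0.05, 328 of 9378 genes were higher and 337 lower in lymphoid cells. The counts were 241 and 361 of 11032 in myeloid cells and 303 and 272 of 11307 in melanoma cells. Genes of a list respond together within a library, so the counts of the list are not independent. The smallest p in lymphoid cells belonged to Oas3, an oligoadenylate synthetase (2.08 ± 0.40), and Cmpk2, a mitochondrial nucleotide kinase (2.73 ± 0.53), both with an edgeR adjusted p of 0.132. In myeloid cells it belonged to the exonuclease gene Isg20 (1.34 ± 0.37) and to Oas1a (1.04 ± 0.34), both with an adjusted p of 0.838.

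Of the 10 genes of the interferon receptors, their kinases and STAT factors, 3 of which are also on the list above, 2 were higher and 6 lower in lymphoid than in myeloid cells; 8318 of all 12274 genes were called there in either direction. Compared with melanoma cells, 10 of 10 were higher in myeloid cells (40.4% of all genes), and 8 were higher and 1 lower in lymphoid cells (37.8% of all genes higher). In monocytes 6 were higher and 0 lower than in macrophages (13.1% of all genes higher). Between genotypes 0 of 10 passed in edgeR. The smallest p belonged to the receptor chain Ifngr2 (0.72 ± 0.30) and the kinase Jak2 (0.49 ± 0.21) in lymphoid cells, and to Stat2 (0.62 ± 0.22) and Jak2 (0.41 ± 0.16) in myeloid cells.

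The genes whose log2(CPM + 1) followed each member best over 28 sums (7 classes in 4 libraries, 7235 genes searched) were Pyhin1, Chmp2a and Arpc1b for Slfn1 (Pearson r 0.99, 0.98 and 0.98). They were Gsdmd, Cdc42 and Phyh for Slfn2 (0.99 each), C3, Rbms1 and Rsad2 for Slfn4 (0.90, 0.89 and 0.89) and Fgr, Gpr35 and Tifab for Slfn5 (0.98, 0.97 and 0.96). For Slfn8 they were Tnf, Ddx58 and Pydc4 (0.96, 0.96 and 0.95). The closest genes to Slfn9, Slc38a10, Mettl6 and Ddx50, reached 0.61, 0.61 and 0.60. Among the members r was highest for Slfn1 and Slfn2 (0.97) and was −0.13 for Slfn8 and Slfn9. The 7 classes were CD8 T cells, melanoma cells, monocytes, intermediate cells, macrophages, type 2 dendritic cells and other myeloid cells. Most of the 7 are myeloid, and which gap between classes r reflects most was not tested. Slfn9 had 211 UMIs in all kept cells, and the part of counting noise in its lower r was not tested. The sums share libraries and differ in depth, and the r values describe them without a test.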

How the data were processed

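The labels give 10x Genomics 3' version 2 libraries of CD45+ cells selected on magnetic columns after collagenase P and DNase I (10 minutes, 37 °C) and a density gradient. The matrix holds whole UMI counts per gene and cell, which the authors deposited as 1 table for all libraries; Cell Ranger, Seurat 2.2.0 and mm10 are named per the submitters' processing notes. Library and genotype came from barcode names. The 6 genes, the lists and the tests were chosen with earlier results of these data known.

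Barcodes with fewer than 500 genes or more than 10% mitochondrial UMIs were dropped (161 barcodes in all; the lowest kept cell had 3961 UMIs). A cell entered a lineage when it expressed enough of its markers (at least 3 T or NK cell, 5 monocyte or macrophage, or 5 melanoma markers) and no other lineage's minimum, limits set after marker distributions were seen; 362 mixed and 855 ungated cells were left out, no doublet caller was run, and 2000 cells lay at or 1 below the monocyte or macrophage limit. Monocytes expressed at least 3 monocyte and at most 4 macrophage markers, macrophages at least 6 macrophage and at most 1 monocyte marker.

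Raw counts were summed per library and gate and tested with edgeR 4.0.16 in R 4.3.3 (TMM, filterByExpr, robust quasi-likelihood fit, Benjamini-Hochberg adjustment over all genes tested, threshold 0.05), with library as a block between classes and none between genotypes. DESeq2 1.42.0, no filter, stricter gates and each library left out were the alternatives. The test was also run on simulated counts, and the outcome is not given here. Limits from counts of 0 cover counting error only. Named genes were all 6 members, the 3 closest genes to each, and the 2 list genes with the smallest p in lymphoid and in myeloid cells. Sequences were aligned with Biopython 1.88. In a chi-square comparison no 2 libraries agreed within sampling noise (17.5 to 93.4 per gene).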

Additional observations from a re-analysis of the deposited data

How the results depend on the processing

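Depth limits Slfn9 (211 UMIs) and the lymphoid Slfn4 and melanoma Slfn5 values, and with 2 libraries a genotype each library weighs on the difference; the cause of each change below was not tested. No paired analysis was possible because the library names carry no replicate number. Between genotypes, DESeq2 called 16 genes in lymphoid cells (6 in edgeR), 19 in myeloid cells (0), 3 in melanoma cells (1), 28 in macrophages (0) and 13 for the lymphoid less myeloid difference (3). With no filter on low counts the counts were 144 in lymphoid cells, 139 in myeloid cells, 83 in melanoma cells, 106 in CD8 T cells (7 with the filter), 12 in monocytes (0), 199 in macrophages and 145 for the lymphoid less myeloid difference. With gates 1 marker stricter they were 22 in lymphoid cells, 0 in melanoma cells, 14 in CD8 T cells and 12 for the lymphoid less myeloid difference. Leaving out 1 library at a time gave 18 to 252 genes in lymphoid, 0 to 56 in myeloid and 3 to 38 in melanoma cells, 0 to 130 in CD8 T cells, 1 to 112 in monocytes, 0 to 258 in macrophages and 35 to 350 for the lymphoid less myeloid difference. It gave 704 to 1143 genes (1222 with all) for CD8 T over regulatory T and 448 to 622 (770) for NK over CD8 T. In the lineage and monocyte tests the signs and calls of Slfn1, Slfn2, Slfn5 and Slfn8 held under every alternative run; Slfn4 lymphoid over melanoma also lost its call with stricter gates (adjusted p = 0.0758). Values that changed sign under stricter gates were Slfn9 lymphoid over myeloid (0.26) and lymphoid over melanoma (0.12), the Adar1-null difference of Slfn9 in melanoma cells (−0.56) and of Slfn1 in CD8 T cells (−0.019), and the lymphoid less myeloid difference of Slfn5 (−0.27). Under DESeq2 they were Slfn4 NK over CD8 T (0.76), the Adar1-null difference of Slfn5 in monocytes (−0.015) and the lymphoid less myeloid difference of Slfn2 (−0.000369). With 1 library left out, signs changed within −0.77 to 0.43 for Slfn9 lymphoid over myeloid, −0.73 to 0.15 lymphoid over melanoma and −0.33 to 0.18 myeloid over melanoma, and within −0.17 to 0.16 for Slfn2 and −0.031 to 0.70 for Slfn8 in NK over CD8 T. The Adar1-null differences ranged from −0.14 to 0.64 for Slfn1 in lymphoid cells, −0.42 to 0.54 in CD8 T cells and −0.16 to 0.79 in macrophages. For Slfn2 they ranged from −0.066 to 0.68 in myeloid cells, −0.18 to 0.20 in monocytes and −0.25 to 0.62 in macrophages, for Slfn5 in monocytes from −0.81 to 0.50 and for Slfn9 in melanoma cells from −0.27 to 0.35. The lymphoid less myeloid difference ranged from −0.21 to 0.25 for Slfn2, −0.97 to 1.39 for Slfn5, −0.28 to 1.29 for Slfn8 and −2.19 to 0.11 for Slfn9. A planned minimum of 20 cells left CD8 T over regulatory T and NK over CD8 T untested, and stricter gates left too few cells to test monocyte over macrophage, both lymphoid class pairs and the genotype difference in monocytes and macrophages; that in regulatory T cells was not run for the same reason. The minimum of 10 cells was chosen after seeing the data.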

Other observations

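In each of the 4 libraries, cells with UMIs of both proliferation genes Mki67 and Top2a had a lower level of Slfn1, described as a growth-arrest gene in mouse thymocytes, than cells with neither, among CD8 T cells and among macrophages. In CD8 T cells Slfn1 stood at 6.89 CPM in cells with both against 19.8 CPM in cells with neither in S1 and at 18.2 against 41.5 CPM in S2 (both Adar1-null), and at 10.2 against 30.2 CPM in S3 and 8.48 against 31.2 CPM in S4 (both control). The CD8 T cells with both held 8, 32, 12 and 11 Slfn1 UMIs in S1 to S4. In macrophages Slfn1 stood at 17.7 against 31.8 CPM in S1, 42.1 against 50.3 CPM in S2, 20.1 against 40.5 CPM in S3 and 14.5 against 26.04 CPM in S4. The macrophages with both numbered 50, 13, 60 and 82 in S1 to S4, with 12, 8, 19 and 18 Slfn1 UMIs. With every CD8 T cell thinned to 3900 UMIs, a Slfn1 UMI was seen in 1.92% of cells with both against 6.86% with neither in S1, 7.63% against 17.9% in S2, 1.19% against 4.44% in S3 and 3.33% against 15.3% in S4. In macrophages the thinned shares were 12% against 12.2% in S1, 15.4% against 17.1% in S2, 10% against 15.7% in S3 and 4.88% against 9.97% in S4, so those of the Adar1-null libraries were close. Slfn2, a quiescence gene in mouse T cells, likewise had a lower CPM in CD8 T cells with both in each library. It stood at 120 against 155, 119 against 216, 139 against 158 and 81.7 against 109 CPM in S1 to S4. Its thinned share was lower in S1 (27.9% against 44.1%) and S2 (38.2% against 50.4%). That share was higher in S3 (47.6% against 38.9%) and S4 (31.1% against 29.4%), so CPM and thinned share disagreed in the control libraries. The lower level was not particular to Slfn1. In macrophages Slfn5 stood at 1.47 against 18.1, 5.26 against 19.1, 3.18 against 15.6 and 4.03 against 17.1 CPM in S1 to S4. The values with both rest on 1, 1, 3 and 5 UMIs. Slfn2 stood there at 221 against 270, 374 against 495, 298 against 334 and 254 against 263 CPM in S1 to S4. Its thinned share was not lower. Higher there in cells with both were Slfn4 in S2, Slfn8 in S2 and S4 and Slfn9 in S1, S2 and S4. The split was chosen after the data were seen and is a description without a test. Thinning equalises the depth at which the Schlafen UMIs were counted, not the depth at which Mki67 and Top2a placed cells in a group.

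Slfn5 was also found in the 64 stromal cells, with 35 of the 126 Schlafen UMIs there (486 per 1000 Slfn2 UMIs, against 58.1 in myeloid cells). Fibroblasts held 23 Slfn5 UMIs in 49 cells (33.3 CPM) and endothelial cells 12 UMIs in 15 cells (43.6 CPM). The mean of Slfn5 over 4 libraries was 24.2 CPM in myeloid cells and 72.9 CPM in monocytes. The ratio to Slfn2 also depends on its denominator, which was 72 Slfn2 UMIs in stromal cells.

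Of the other family symbols in the matrix, Slfn3 had 140 UMIs in kept cells, Slfn14 and the antisense gene Slfn5os 1 each, and Slfnl1 none.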
